A study of Homo sapiens with 12 samples.

Results

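The free intracellular domain of Notch1 (NICD) was compared directly with the intact Notch1 receptor in MCF-10A, a human mammary epithelial cell line that is immortal but does not form tumours. The members are the 3 arrays titled NICD and the 3 titled wild-type full-length Notch1, which are 6 of the 12 arrays in the series. The other 6 arrays carried the empty vector or Notch1 L1601P+ΔP, with 3 arrays each, and they enter here as reference levels. All cells were infected with retrovirus, and RNA was taken at 48 h. Cells of every group came from the same line, grown under the line's usual conditions, and keep their own NOTCH1 gene. NICD is the part of the receptor that acts in the nucleus, without the outer part or the membrane span. The descriptions of the NICD samples add gfp to the name. The sources used here do not say whether that is a fused tag or a separate marker, so a part of the difference that comes from it cannot be told apart from that of NICD. The L1601P change lies where the subunits of the receptor are joined. The ΔP change deletes the PEST sequence at the C-terminus, through which the intracellular domain is degraded. The sources used here do not give the promoter of the vector, the species of the inserted sequences or the share of cells infected. Replicates are labelled biological, with nothing on how separately they were cultured. The p-values thus set a difference only against the spread within the groups of these 12 arrays.

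Notch receptors sit in the cell membrane and are switched on by ligands such as Jagged and Delta on a neighbouring cell. Ligand pulling exposes the receptor to cleavage by ADAM proteases and then by γ-secretase, which frees the intracellular domain to enter the nucleus. There it joins the DNA-binding protein RBPJ and a Mastermind coactivator and turns on targets such as the HES and HEY repressors. In the mammary gland Notch signalling is known for its part in the choice between basal and luminal cell fates. A full-length receptor therefore still needs a ligand and cleavage, and NICD does not.

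Values are deposited log2 signals, so a difference of 1 is 2-fold. Means are given ± SD and differences, always NICD minus full-length Notch1 unless said otherwise, ± the standard error of the fit, with n = 3 arrays per group throughout. A gene is said to be called, or to have risen or fallen, where the limma adjusted p was under 0.05 over the 19775 genes tested. Levels of different probe sets are not set against each other. Array medians lay between 5.64 and 5.697. The 3′ minus 5′ difference of 2 control genes, which grows as RNA degrades, was -0.006 ± 0.018 with full-length Notch1 and -0.04 ± 0.024 with NICD for GAPDH, and 0.299 ± 0.012 and 0.388 ± 0.05 for ACTB. The part of this ACTB difference in the results was not tested.

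NICD and full-length Notch1 gave broadly different transcriptomes. Of 19775 genes, 5346 (27%) were called, 1992 of them higher with NICD (10.1%) and 3354 lower (17%). The rises were fewer and larger. At least 2-fold, 351 genes were higher (1.77%) and 177 lower (0.895%), and at least 16-fold, which is 4 on the log2 scale, 30 were higher and 0 lower. Differences ran from -2.67 to 7.57. The split between directions depended on scaling: higher genes made up 37.3% of the calls in the deposited values and 52.9% after cyclic loess, a further normalization between arrays. The arrays of the groups did not overlap in 7812 genes (39.5%).

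**Figure D1:**
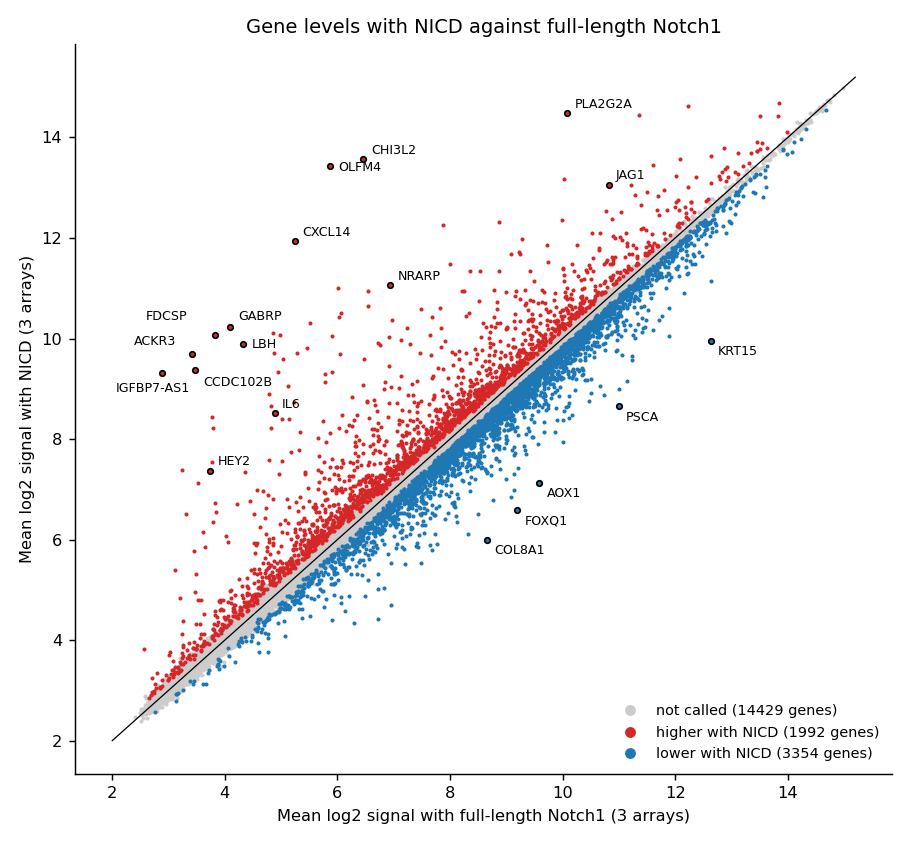
Mean log2 signal of each of 19775 genes with NICD (vertical axis) against full-length Notch1 (horizontal axis), 3 arrays per group, with genes called higher in red, called lower in blue and not called in grey. The line marks equal levels. OLFM4, CHI3L2 and CXCL14 lie farthest above it and KRT15, COL8A1 and FOXQ1 farthest below.

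NOTCH1 itself checks the labels, and its probe sets gave opposite answers. On the dimmer one, the full-length Notch1 arrays read 9.11, 9.19 and 9.17 and the NICD arrays 8.79, 8.75 and 8.83, against a vector mean of 6.54 ± 0.20. Both forms thus stood well above vector on this probe set, and NICD differed from full-length Notch1 by -0.37 ± 0.08 (adjusted p = 0.008 over all probe sets). On the brighter one, used at the gene level, full-length Notch1 read 9.49, 9.52 and 9.56 and NICD 9.64, 9.68 and 9.83, against a vector mean of 9.44 ± 0.06. Full-length Notch1 differed from vector by only 0.08 there and was not called, so this probe set does not set the full-length arrays apart from vector. The difference of 0.20 ± 0.06 between NICD and full-length Notch1 was called over genes (adjusted p = 0.0299) and not over all probe sets (adjusted p = 0.056). Where on the transcript the probes lie was not analysed here, so no order of the introduced transcripts is drawn from them. The NOTCH1 gene-level call was lost without NICD replicate 3 and without any one of the full-length replicates, and its sign turned to -0.37 on the most variable probe set.

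The promoters of the 4 Notch target genes with the largest rises, leaving out HEY1 for its chromosome, are shown because these genes are where NICD bound to RBPJ is known to act. Each is the stretch of 250 bases before the gene's start, 5′ to 3′ along the gene, from RefSeq on GRCh38.p14. Capitals mark TGGGAA, the core letters RBPJ is known to bind, or TTCCCA, the same letters read on the opposite strand.
NRARP, chr9:137302272-137302521, minus strand: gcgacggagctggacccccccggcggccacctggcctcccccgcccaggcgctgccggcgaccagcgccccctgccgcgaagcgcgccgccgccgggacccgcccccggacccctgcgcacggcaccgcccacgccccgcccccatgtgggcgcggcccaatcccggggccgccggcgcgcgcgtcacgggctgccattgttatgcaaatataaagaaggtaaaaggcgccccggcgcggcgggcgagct
HEY2, chr6:125749382-125749631, plus strand: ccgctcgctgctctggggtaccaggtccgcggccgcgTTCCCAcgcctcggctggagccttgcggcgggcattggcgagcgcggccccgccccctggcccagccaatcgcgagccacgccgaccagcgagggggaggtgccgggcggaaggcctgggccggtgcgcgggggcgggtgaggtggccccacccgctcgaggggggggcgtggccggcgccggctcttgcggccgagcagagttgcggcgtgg
JAG1, chr20:10674000-10674249, minus strand: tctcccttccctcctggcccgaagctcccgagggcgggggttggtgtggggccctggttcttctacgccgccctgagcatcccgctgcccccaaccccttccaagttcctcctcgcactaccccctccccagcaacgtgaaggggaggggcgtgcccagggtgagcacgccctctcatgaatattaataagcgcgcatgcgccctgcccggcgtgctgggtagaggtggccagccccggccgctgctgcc
HES4, chr1:1000098-1000347, minus strand: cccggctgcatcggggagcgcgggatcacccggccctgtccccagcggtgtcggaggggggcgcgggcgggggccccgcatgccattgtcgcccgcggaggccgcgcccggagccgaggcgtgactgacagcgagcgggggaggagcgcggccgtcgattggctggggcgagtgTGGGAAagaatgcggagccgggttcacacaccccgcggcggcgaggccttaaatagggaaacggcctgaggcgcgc
The letters occurred once before HEY2, as TTCCCA with 207 bases between it and the start, and once before HES4, as TGGGAA with 70 bases in between. They did not occur in the windows of NRARP and JAG1, which says only that these letters are not there. Among promoters of this length, 20.8% of all 35116 in the RefSeq table held the letters on either strand. Of the 15382 tested genes with a promoter in that table, 20.1% did. The share was 27.1% for genes at least 2-fold higher with NICD (72 of 266 with a promoter in the table), 15.8% for those at least 2-fold lower (21 of 133) and 26.3% for the Notch target list (5 of 19). A match is a description of the letters, not a binding site.

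Of 25 Notch target genes tested, 12 rose with NICD and 4 fell, with a median difference of 0.26 beside -0.02 over all genes. Among all genes 10.1% rose and 17% fell. The falls in this list were thus about as frequent as over all genes, and their count is no result about the list. NRARP, which encodes a feedback inhibitor that binds the NICD complex, read 7.06, 6.76 and 6.98 with full-length Notch1 and 11.05, 11.04 and 11.09 with NICD. Its difference of 4.12 ± 0.10 is 17.4-fold (adjusted p = 1.21e-11). All NICD arrays were thus far above all full-length arrays, which lay close to the vector mean of 6.63 ± 0.22.

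HEY2 and HEY1, which encode repressors, rose as well. HEY2 read 3.73, 3.76 and 3.73 with full-length Notch1, among the dimmest signals, and 7.47, 7.28 and 7.36 with NICD, a difference of 3.63 ± 0.08 (adjusted p = 4.08e-12). HEY1 read 7.09, 6.93 and 6.88 against 10.38, 10.33 and 10.40, a difference of 3.40 ± 0.06 (adjusted p = 9.89e-13). For neither did the groups overlap, and full-length Notch1 differed from vector by 0.06 for HEY2 and -0.05 for HEY1, neither called. HEYL, the remaining HEY gene, fell by 0.35 ± 0.10 (adjusted p = 0.0222), but this call was lost without NICD replicate 3 and without full-length replicate 1 or 3, and its other probe set read 0.19 higher without a call.

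The HES genes were mixed. HES4 read 7.09, 7.12 and 7.08 with full-length Notch1 and 9.11, 9.15 and 8.80 with NICD, a rise of 1.92 ± 0.09 (adjusted p = 4.65e-09). HES2 rose by 0.98 ± 0.06, on 2 of 3 probe sets and by 0.55 on their median. HES1, the best known target of the family, read 9.76, 9.61 and 9.67 against 9.81, 9.97 and 9.54. These arrays overlapped, the difference of 0.09 ± 0.09 was not called (adjusted p = 0.517), and 0 of its 3 probe sets were called. HES5, HES6 and HES7 were not called either, at 0.08, -0.04 and -0.13.

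Other targets that rose were SNAI2, a transcription factor of epithelial-mesenchymal transition, by 1.59 ± 0.06, SOX9, a progenitor transcription factor, by 1.35 ± 0.06, and the cell cycle genes CCND1, by 0.78 ± 0.07, and CDKN1A, by 0.36 ± 0.06. MYC, a direct Notch target in T cell leukaemia, was slightly lower: 13.19, 13.21 and 13.19 with full-length Notch1 against 12.82, 12.80 and 12.90 with NICD, a difference of -0.36 ± 0.05 (adjusted p = 0.000253). TRIB2 differed by -0.39 ± 0.09. The last of the 4 falls, GATA3 at -0.22 ± 0.07, lost its call without NICD replicate 1 or 3 and without full-length replicate 3. Together with HEYL this takes the count of falls from 4 to 2 without NICD replicate 3 or full-length replicate 3.

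**Figure D2:**
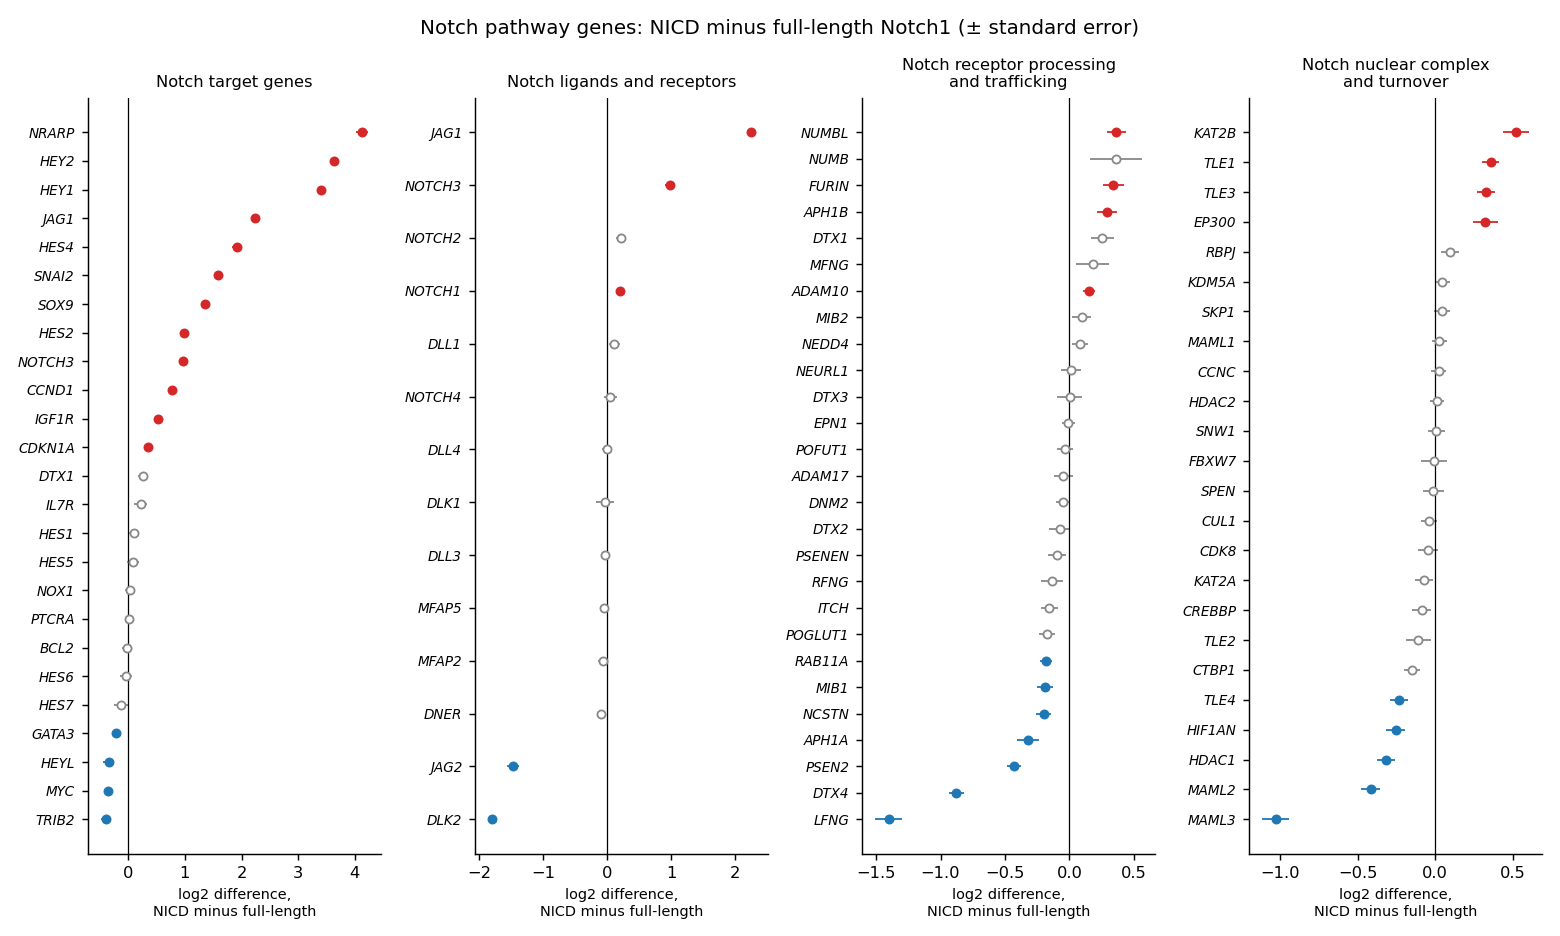
Log2 difference, NICD minus full-length Notch1, with its standard error for each tested gene of 4 Notch lists, with red filled points called higher, blue filled points called lower and open grey points not called. Target genes reach 4.12 (NRARP), and the ligands end with JAG1 at 2.24 on one side and DLK2 at -1.79 on the other.

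Of 14 ligands and receptors, 3 were called higher and 2 lower, beside 10.1% and 17% of all genes, so the counts are no result about the list, and one of the rises is the NOTCH1 call described as unstable. JAG1, a Notch ligand that is itself a Notch target, read 10.80, 10.87 and 10.78 with full-length Notch1 and 13.07, 13.04 and 13.06 with NICD, a difference of 2.24 ± 0.06 (adjusted p = 4.99e-11) with 5 of its 6 probe sets called higher. JAG2, the related ligand, read 9.23, 9.01 and 9.19 against 7.81, 7.56 and 7.66, a difference of -1.47 ± 0.09 (adjusted p = 7.07e-08). The paired Jagged genes thus moved in opposite directions, and neither set of arrays overlapped. DLK2, a non-canonical ligand known to oppose Notch1, fell by 1.79 ± 0.07 (adjusted p = 6.48e-10). NOTCH3 rose by 0.98 ± 0.07 on 1 of its 2 probe sets, and by 0.46 on their median, while NOTCH2 at 0.21 and NOTCH4 at 0.05 were not called. The Delta ligands DLL1, DLL3 and DLL4 were not called at the gene level. On the most variable probe set of each gene, 4 members were lower, DLL1 among them at -0.63.

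Of 27 genes of receptor processing and trafficking, 4 were called higher and 7 lower. The largest difference was that of LFNG, the Fringe enzyme that adds sugars to the receptor and tunes its ligand preference. It read 6.91, 6.95 and 6.98 with full-length Notch1 and 5.82, 5.29 and 5.51 with NICD, or -1.40 ± 0.10 (adjusted p = 4.41e-07). It was called on 1 of its 2 probe sets, with the other at 0.05, and on the median of probe sets it differed by -0.68, less than DTX4. DTX4, a Deltex ubiquitin ligase, differed by -0.88 ± 0.06 and PSEN2, a catalytic subunit of γ-secretase, by -0.43 ± 0.05, with 3 of 3 probe sets called. Smaller differences in this list were fragile: the falls numbered 4 without NICD replicate 3 or full-length replicate 3, and the rises numbered 2 without full-length replicate 2. After cyclic loess the balance turned, with 6 genes called higher and 3 lower.

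In the nuclear complex, 4 of 24 genes were called higher and 5 lower. RBPJ, the DNA-binding partner of NICD, was not called at 0.09. Of the Mastermind coactivators, MAML3 read 6.30, 6.47 and 6.29 with full-length Notch1 and 5.22, 5.48 and 5.27 with NICD, a difference of -1.03 ± 0.09 (adjusted p = 1.27e-06) on 1 of its 3 probe sets. MAML2 differed by -0.42 ± 0.06, on both of its probe sets, and MAML1 was not called at 0.03. The acetyltransferase gene KAT2B rose by 0.52 ± 0.08 and EP300 by 0.32 ± 0.08 (0.18 on the median of its probe sets). Beside 10.1% higher and 17% lower over all genes, these counts and those of receptor processing are no result about the lists.

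The largest rise was that of OLFM4. This gene, for a glycoprotein secreted by intestinal crypt cells and Notch-responsive there, read 5.68, 5.98 and 5.92 with full-length Notch1 and 13.48, 13.37 and 13.45 with NICD. The difference of 7.57 ± 0.13 is 190-fold (adjusted p = 8.01e-13). CHI3L2, a chitinase-like secreted protein, read 6.42, 6.60 and 6.32 against 13.53, 13.49 and 13.67, a difference of 7.12 ± 0.10 (adjusted p = 4.06e-13). The groups lay far apart in both genes, and within a group the arrays differed by no more than a small part of that gap.

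CXCL14, a chemokine of epithelia, read 5.33, 5.21 and 5.22 with full-length Notch1 and 11.88, 11.99 and 11.93 with NICD. ACKR3, an atypical receptor that takes up the chemokine CXCL12, read 3.40, 3.62 and 3.23 against 9.80, 9.50 and 9.77. Their differences of 6.68 ± 0.12 and 6.27 ± 0.11 were called on all 3 probe sets of each gene (gene-level adjusted p = 9.74e-13 and 8.17e-13), although the dimmest ACKR3 probe set differed by only 0.22. CXCL12 itself was not called at -0.03.

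IGFBP7-AS1, a transcript antisense to the growth factor binding protein gene IGFBP7, read 3.13, 2.74 and 2.79 against 9.29, 9.37 and 9.31, a difference of 6.44 ± 0.11 (adjusted p = 8.01e-13). IGFBP7 itself read 9.70, 9.70 and 9.79 against 11.99, 11.84 and 11.77, a difference of 2.14 ± 0.08 (adjusted p = 8.53e-10). Both rose, and whether the probes of one also read RNA of the other was not analysed here. FDCSP, a small secreted peptide, rose by 6.26 ± 0.10, GABRP, a GABA receptor subunit of epithelia, by 6.14 ± 0.13, and LBH, a transcription cofactor active in mammary stem cells, by 5.57 ± 0.19. The rest of the 15 largest rises were CCDC102B (5.92), the phospholipase PLA2G5 (5.25), the adaptor AFAP1L2 (5.10), the glutathione peroxidase GPX2 (4.98), the lipid-presenting CD1D (4.85), DAPL1 (4.79) and the endocytic adaptor STON1 (4.67). Every probe set of ACKR3, CCDC102B, GPX2 and STON1 was called higher, but by unequal amounts, and on the median of probe sets the rises were 1.94, 3.76, 2.90 and 3.21 in that order. Where the full-length level was near 3 or 4, as in ACKR3, FDCSP, GABRP, CCDC102B and IGFBP7-AS1, it is among the dimmest signals on the array, where log2 values are compressed and the fold is understated.

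**Figure D3:**
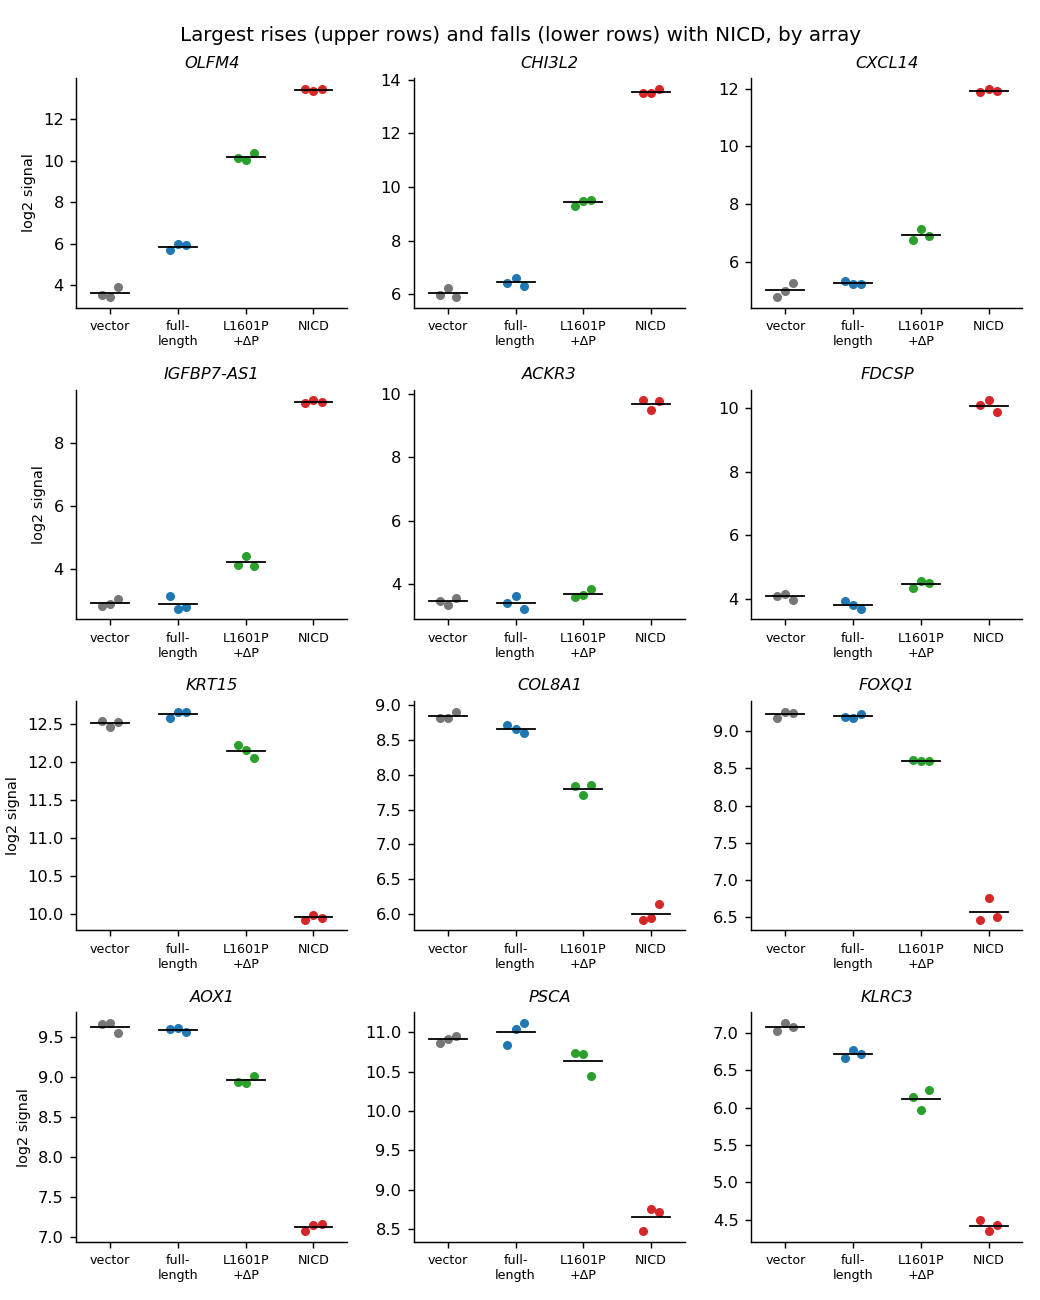
Log2 signal on each of the 12 arrays (points) with group means (lines) for the 6 largest rises (upper rows) and 6 largest falls (lower rows) with NICD against full-length Notch1. In these 12 genes the 3 NICD arrays lie clear of the 3 full-length arrays, and the full-length mean is closer to the vector mean than to the NICD mean.

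The largest fall was that of KRT15. This gene, for a keratin of basal and progenitor cells, read 12.58, 12.65 and 12.66 with full-length Notch1 and 9.93, 9.998 and 9.96 with NICD, a difference of -2.67 ± 0.06 or 6.36-fold lower (adjusted p = 3.11e-12). COL8A1, a short-chain collagen, read 8.72, 8.65 and 8.60 against 5.91, 5.94 and 6.14, a difference of -2.66 ± 0.07 (adjusted p = 2.2e-11) on 2 of its 3 probe sets. FOXQ1, a forkhead transcription factor, read 9.18, 9.17 and 9.23 against 6.47, 6.76 and 6.51, a difference of -2.62 ± 0.07. In none of these did the groups overlap.

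Next by size came the aldehyde oxidase AOX1 at -2.46 ± 0.05. Further down came the aldehyde dehydrogenase ALDH3A1 at -2.14 ± 0.08 and the efflux pump ABCC3 at -2.05 ± 0.06. Others of the 15 largest falls, some of them larger than that of ALDH3A1, were PSCA at -2.35 ± 0.10, KLRC3 at -2.30 ± 0.07, the receptor tyrosine kinase AXL at -1.98 ± 0.08 and the integrin subunit ITGB4 at -2.001 ± 0.06. SVEP1 (-2.24), TPRG1 (-2.24), the long non-coding RNA LNCAROD (-2.21) and the transcription factor ZBED2 (-1.98) completed the list with MIR205HG. Several of these genes had probe sets that did not move: 5 of 7 were called lower for SVEP1, 4 of 5 for ABCC3 and 3 of 5 for ITGB4. Both AXL probe sets were called lower, the other one at only -0.26. On the median of probe sets the falls were -0.79 for SVEP1, -1.04 for ABCC3 and -1.12 for AXL.

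MIR205HG, the host transcript of miR-205, a microRNA of basal epithelial cells known to target ZEB1 and ZEB2, read 11.11, 11.13 and 11.19 with full-length Notch1 and 9.15, 9.07 and 9.23 with NICD. The difference was -1.99 ± 0.06 (adjusted p = 1.1e-10), and a probe set annotated to MIR205 differed by -1.85 ± 0.06. The groups did not overlap on either. The mature microRNA was not measured by these arrays. Its RefSeq sequence, encoded at chr1:209432166-209432187 on the plus strand of GRCh38.p14, is shown to identify the product this transcript carries, with the seed (bases 2 to 8) in capitals.
hsa-miR-205-5p: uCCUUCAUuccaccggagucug
ZEB2, an epithelial-mesenchymal transcription factor, read 4.39, 4.34 and 4.58 against 6.67, 6.66 and 6.95, a rise of 2.32 ± 0.15 (adjusted p = 9.13e-08) on 2 of its 5 probe sets and 0.55 on their median, and ZEB1 rose by 0.89. A link between these transcripts was not tested.

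Secreted antimicrobial and mucosal proteins were called higher in 12 of 22 genes and lower in 1, with a median of 0.59. Over all genes 10.1% were called higher and 17% lower. The counts of this list and of those that follow are to be read against these shares. Beside OLFM4 and CHI3L2, the phospholipase PLA2G2A rose by 4.40 ± 0.07, the antimicrobial S100A7 by 2.72 ± 0.18 and the elastase inhibitor PI3 by 2.40 ± 0.06. S100A7 read 7.94, 8.41 and 8.31 with full-length Notch1 and 10.91, 11.10 and 10.81 with NICD. RNASE7, an antimicrobial ribonuclease of skin, was the member that fell, by 1.10 ± 0.13. LCN2, LYZ and C3 were not called, at -0.22, 0.14 and 0.02.

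Cytokines and chemokines rose in 14 of 28 genes and fell in 4 (median 0.28). IL6 read 4.94, 4.81 and 4.92 with full-length Notch1 and 8.63, 8.48 and 8.44 with NICD, a difference of 3.63 ± 0.09 or 12.4-fold (adjusted p = 9.85e-12). IL32 rose by 3.11 ± 0.08 and the neutrophil chemokine CXCL2 by 1.42 ± 0.06 (0.81 on the median of its probe sets). Going the other way, the granulocyte growth factor CSF3 read 8.07, 7.99 and 8.01 against 6.94, 7.13 and 6.76, a difference of -1.08 ± 0.09, and IL18 fell by 0.82 ± 0.07 and IL1A by 0.74 (-0.43 on the median of its probe sets).

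Their receptors rose in 12 of 25 genes and fell in 3 (median 0.18). LIFR, the receptor for leukaemia inhibitory factor, read 6.42, 6.63 and 6.60 with full-length Notch1 and 10.56, 10.63 and 10.73 with NICD, a difference of 4.09 ± 0.08 (adjusted p = 1.37e-12) on 5 of 5 probe sets. IL1R1, the interleukin-1 receptor, rose by 2.76 ± 0.06, and the related IL18R1 and IL1R2 by 1.33 ± 0.17 and 1.196 ± 0.10. IL6R, the ligand-binding chain for IL6, went against its ligand at -1.02 ± 0.08, with 7.79, 7.99 and 8.0 against 6.77, 6.90 and 7.04. Of 15 NF-kB subunits and inhibitors, 4 were higher and 1 lower, led by the inhibitor TNFAIP3 at 1.94 ± 0.06, while NFKB1 at -0.08 and RELA at -0.09 were not called. In this list 33.3% of the genes were called, beside 27% of all genes.

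Basement membrane and integrin adhesion genes fell in 15 of 24 cases and rose in 5, with a median of -0.53. ITGB4, which pairs with ITGA6 in hemidesmosomes, read 10.99, 11.02 and 10.99 with full-length Notch1 and 8.93, 9.14 and 8.93 with NICD, a 4-fold fall. Its partner ITGA6 read 11.49, 11.46 and 11.51 against 10.36, 10.42 and 10.30, or -1.13 ± 0.05 (adjusted p = 5.85e-09). The hemidesmosome linkers DST and PLEC differed by -1.84 ± 0.08 and -1.16 ± 0.09, and LAMB3, a chain of their ligand laminin-332, by -1.37 ± 0.05. On the median of its 10 probe sets, of which 7 were called lower, DST differed by -1.15. The type IV collagens split by gene: COL4A6 read 10.49, 10.49 and 10.53 against 8.87, 9.0 and 8.88, or -1.58 ± 0.05, whereas COL4A1 read 8.06, 8.18 and 8.01 against 9.67, 9.78 and 9.63, a rise of 1.61 ± 0.06. ITGA5, a fibronectin receptor chain, rose by 1.2 ± 0.07.

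Interstitial matrix and mesenchymal genes were called higher in 15 of 32 cases and lower in 7 (median 0.16). POSTN, a matrix protein of remodelling stroma, read 3.87, 3.79 and 3.74 with full-length Notch1 and 8.28, 8.24 and 8.11 with NICD, a difference of 4.41 ± 0.10 (adjusted p = 7.83e-12) on 3 of its 4 probe sets and 1.90 on their median. FBN1, the microfibril protein, rose by 3.5 ± 0.09 and the matrix protein SPARC by 2.60 ± 0.08. The members that fell were led by COL8A1 and AXL, followed by THBS1 at -1.18 ± 0.09 (-0.79 on the median of its probe sets), and the mesenchymal cadherin CDH2 fell by 0.37. CDH1, the epithelial cadherin, read 11.88, 11.97 and 11.97 against 11.88, 11.99 and 12.01, a difference of 0.02 ± 0.06 that was not called. VIM, the mesenchymal filament, was not called at 0.14. Fibroblast markers were called higher in 1 of 8 genes (DCN, 0.33 ± 0.05, or 0.55 on the median of its probe sets) and lower in 0 by limma (unadjusted, 1 and 0 at 0.05). COL1A1 was also called higher on the median of probe sets and on the most variable probe set. Of its 5 probe sets, 1 was called. The summed linear signal of the 8 markers ran from 2426 to 2618 with full-length Notch1 and from 2990 to 3122 with NICD. DCN, the brightest of them, made up most of this sum. It read 10.95, 10.88 and 10.80 with full-length Notch1 and 11.26, 11.17 and 11.20 with NICD. The part of this sum in the matrix genes was not tested.

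Cell junction genes were called higher in 7 of 24 cases and lower in 6. The desmosomal genes DSC3, DSC2 and DSG3 rose by 0.80, 0.79 and 0.75, while the desmosomal plaque gene PKP2 read 9.64, 9.67 and 9.70 against 8.23, 8.10 and 8.07, or -1.53 ± 0.07 (adjusted p = 7.94e-09). Keratinocyte differentiation genes also split, with 8 of 32 higher and 12 lower. IVL, a cornified envelope protein, read 6.82, 6.78 and 6.68 with full-length Notch1 and 9.77, 10.07 and 9.76 with NICD, a rise of 3.11 ± 0.10 (adjusted p = 1.71e-10), and the protease gene KLK10 rose by 1.84 ± 0.09. The envelope cross-linker TGM1 and the keratin KRT4 differed by -0.94 ± 0.07 and -0.98 ± 0.12 (-0.56 for KRT4 on the median of its probe sets). Of the barrier genes, FLG fell by 0.25 and LORICRIN was not called at 0.02.

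Luminal mammary markers were called higher in 4 of 24 cases and lower in 8. AGR2, an endoplasmic reticulum protein of luminal cells, read 6.89, 6.81 and 6.81 against 5.17, 5.31 and 4.62, a difference of -1.80 ± 0.15 (adjusted p = 1.85e-06) on 1 of 2 probe sets and -0.91 on their median. GREB1, an oestrogen-responsive gene, differed by -1.70 ± 0.08 on 1 of 3 probe sets, and its call was lost when the median of its probe sets was used. FOXA1, a luminal pioneer factor, fell by 0.91 ± 0.11, and ESR1 and KRT19 were not called at 0.05 each. TFF1, dim with full-length Notch1 at a mean of 5.08, rose by 1.32 ± 0.11. The brighter keratin gene KRT8 read 9.91, 9.95 and 9.92 against 10.15, 10.41 and 10.20, a rise of 0.33 (adjusted p = 0.00874). Of 7 tested basal markers that define the line, KRT5 and KRT14 were high in both groups and slightly higher with NICD, by 0.45 ± 0.05 and 0.36 ± 0.07, CDH1 and CDH3 were not called, and SFN, ITGA6 and LAMB3 fell. The basal markers TP63, KRT17 and KRT6A were not analysed here.

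Genes of epidermal growth factor signalling and MAPK feedback fell in 17 of 26 cases and rose in 1, with a median of -0.41. The ligand gene EREG read 7.70, 7.72 and 7.78 with full-length Notch1 and 6.53, 6.38 and 6.56 with NICD, or -1.24 ± 0.07 (adjusted p = 4.32e-08), on 1 of 2 probe sets and -0.74 on their median. EGFR, the receptor on which MCF-10A growth is known to depend, read 10.71, 10.73 and 10.84 against 10.05, 10.05 and 9.98, or -0.74 ± 0.06 (adjusted p = 6.16e-07). All arrays of these genes were lower with NICD. The feedback inhibitors SPRED2 at -0.89 ± 0.05, SPRY2 at -0.79 and DUSP6 at -0.70 fell, as did the receptor gene EPHA2 at -1.06 ± 0.06 and the ligand gene HBEGF at -0.81 ± 0.10. On the median of probe sets SPRED2 differed by -0.41 and HBEGF by -0.33. TGFA was the one member that rose, by 0.42 ± 0.06.

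Cholesterol and fatty acid synthesis genes fell in 19 of 21 cases and rose in 1, with a median of -0.42. After cyclic loess 14 were lower and 1 higher, with a median of -0.33. SCD, the stearoyl-CoA desaturase, read 12.44, 12.47 and 12.50 with full-length Notch1 and 11.63, 11.71 and 11.59 with NICD, or -0.83 ± 0.05 (adjusted p = 1.09e-07), on 4 of 4 probe sets. ACACA, which makes malonyl-CoA, differed by -0.75 ± 0.05 and SREBF1, a transcription factor of lipid synthesis, by -0.70 ± 0.08, each on 1 of 2 probe sets and at -0.39 and -0.43 on their median. HMGCS1 was uneven among the NICD arrays, at 9.44, 9.86 and 8.59 against 10.08, 10.05 and 10.17. Its difference of -0.80 ± 0.25 (adjusted p = 0.0309) was not called without NICD replicate 3, where it came to -0.45, nor without any one of the full-length replicates. LSS, the member that rose, at 0.34 ± 0.05, was called on 1 of 3 probe sets.

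Amino acid stress and unfolded protein genes fell in 18 of 26 cases and rose in 1 (median -0.42). After cyclic loess 14 were lower and 2 higher (median -0.32). SLC7A5, which with SLC3A2 forms a transporter of large amino acids, read 12.63, 12.62 and 12.67 with full-length Notch1 and 11.18, 11.24 and 11.01 with NICD, or -1.50 ± 0.06 (adjusted p = 2.41e-09). SLC3A2 fell as well, at -1.2 ± 0.06, as did SLC7A11, the cystine transporter that also pairs with it, at -1.65 ± 0.19. The partners in these transporters were thus lower on every NICD array. The kinase-like TRIB3 fell by 1.06 ± 0.14 and the asparagine synthetase gene ASNS by 0.98, while MTHFD2, a mitochondrial folate enzyme, rose from 11.71, 11.78 and 11.61 to 12.83, 12.85 and 12.85.

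Genes of the list of cyclin-dependent kinase inhibitors and cyclins rose in 11 of 26 cases and fell in 4 (median 0.05). GADD45A, a stress-induced growth arrest gene, read 10.63, 10.72 and 10.64 with full-length Notch1 and 12.09, 12.13 and 12.09 with NICD, a rise of 1.44 ± 0.05 (adjusted p = 4.77e-10). KLF9 rose by 1.73 ± 0.11, on 3 of 5 probe sets and without a call on their median, and CDKN1C, an inhibitor of cyclin-dependent kinases, by 0.83 ± 0.10 (0.44 on the median of its probe sets). The transcription factor gene E2F2 rose by 0.81 on 1 of its 3 probe sets, and differed by -0.0067 on their median. CCND2 fell by 0.62 ± 0.05 as CCND1 rose. DNA replication genes were called higher in 0 of 32 cases and lower in 8 by limma (unadjusted, 0 and 14 at 0.05), with a median of -0.13, and after cyclic loess 2 were higher and 4 lower. The share called was 25%, near the 27% of all genes, so this count is no result about the list. Mitosis genes were called higher in 0 of 30 and lower in 2 (0 and 2 unadjusted), with a median of -0.01, and after cyclic loess 3 were higher and 1 lower. One of the falls, BUB1B at -0.15, lost its call without NICD replicate 2 and without any one of the full-length replicates, and the other, PTTG1, read 12.28, 12.16 and 12.27 against 11.83, 11.98 and 11.76.

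Of 24 TGF-beta, BMP and YAP target genes, 4 rose and 9 fell (median -0.15). CCN1, a matricellular protein, rose by 2.69 ± 0.07 while its relative CCN2 fell by 0.26, and AJUBA, an adaptor of the Hippo pathway, read 11.18, 11.19 and 11.31 against 9.66, 9.71 and 9.59, or -1.57 ± 0.06. The ID genes also parted, with ID3 up by 0.76 ± 0.07 and ID1 at -0.47. WNT pathway genes were called in 5 of 24 cases in each direction, and the rises numbered 2 on the median of probe sets. In this list 41.7% of the genes were called, beside 27% of all genes. As the rises depended on the probe set, no result about the list is drawn from these counts. The secreted WNT inhibitors SFRP1 and DKK1 fell by 1.28 ± 0.05 and 1.23 ± 0.08. Of 29 type I interferon genes, 10 were higher and 6 lower (median 0.07), with ISG20, an exonuclease, at 1.10 ± 0.10 and IFI44L at -1.78 ± 0.10, the latter read at 9.02, 8.89 and 9.05 against 7.21, 7.07 and 7.33.

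**Figure D4:**
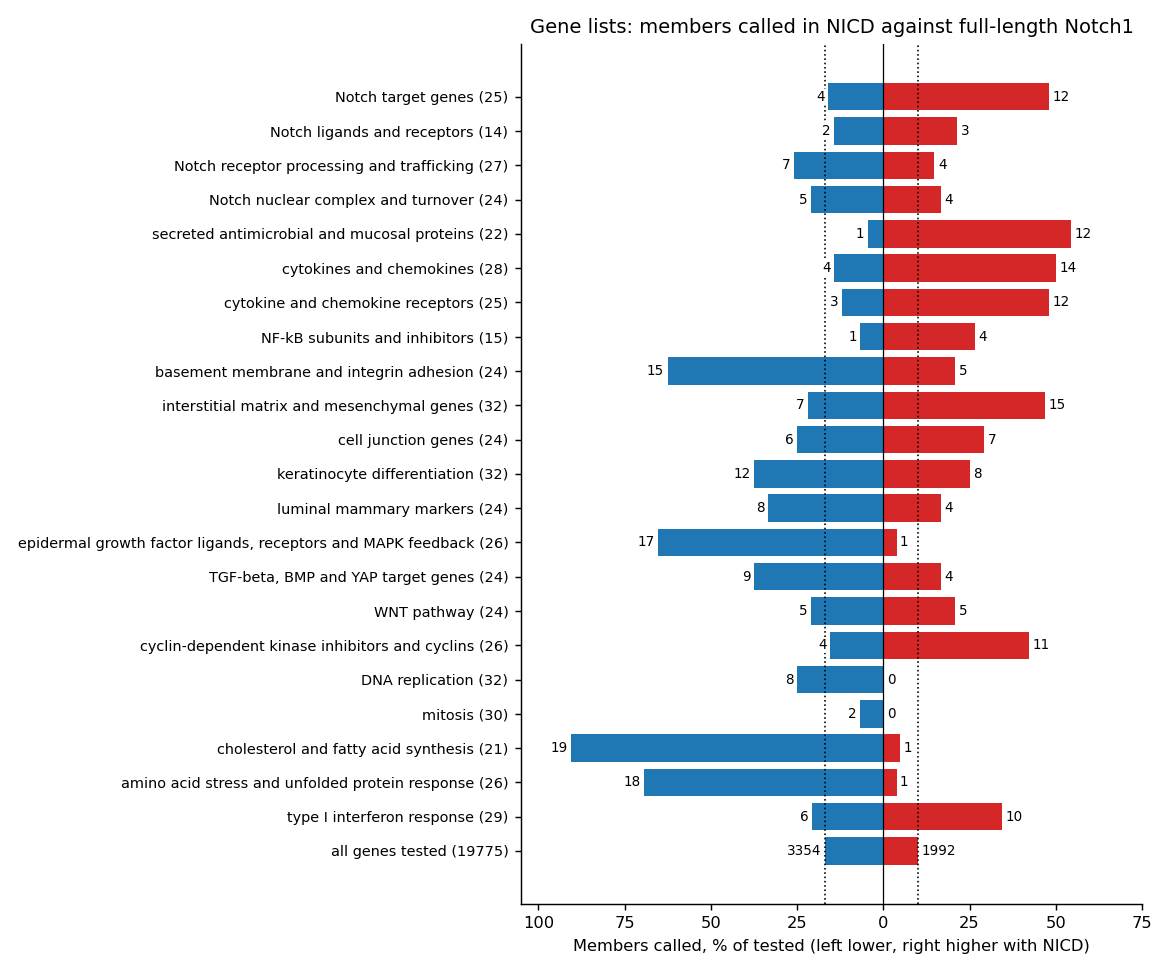
Share of the tested genes of each list that was called lower (left, blue) or higher (right, red) with NICD against full-length Notch1, with the number of genes at each bar and the number tested in brackets. Dotted lines mark the shares over all 19775 genes, 17% lower and 10.1% higher. Cholesterol and fatty acid synthesis lies farthest left with 19 of 21 genes, and secreted antimicrobial and mucosal proteins farthest right with 12 of 22.

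Markers of other cell types were mostly not called. Among 6 blood cell markers tested, CD14, a lipopolysaccharide co-receptor also made by epithelia, read 8.89, 8.82 and 8.91 with full-length Notch1 and 11.39, 11.34 and 11.29 with NICD, a rise of 2.47 ± 0.06. The summed linear signal of the 6 markers, CD14 included, ran from 666.2 to 700.6 with full-length Notch1 and from 2704 to 2906 with NICD. CD14, the brightest of the 6, made up most of this sum in both groups. PTPRC, the pan-leukocyte marker, read 3.55, 3.67 and 3.34 against 3.70, 3.52 and 3.68, and CD3E, LYZ, ITGAM and HBB were not called either. Of 8 endothelial markers KDR rose, by 0.93 ± 0.09, and CDH5, VWF and TEK were not called. The endothelial sum ran from 312.8 to 347.7 with full-length Notch1 and from 354.4 to 382.5 with NICD. No blood or endothelial marker was called lower by limma, and none passed as lower at 0.05 unadjusted, but on the median of probe sets PECAM1 was called lower at -0.32.

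Full-length Notch1 lay close to vector. In that comparison 7 of 19775 genes (0.0354%) were called, 6 higher and 1 lower, against 5460 (27.6%) for NICD and vector. The contrasts share arrays, so each gene is given with its own values. PLA2G2A stood at 6.83 ± 0.11 with vector, read 10.09, 10.08 and 10.07 with full-length Notch1, stood at 13.47 ± 0.15 with Notch1 L1601P+ΔP and read 14.49, 14.46 and 14.48 with NICD, close to the top of the scale at 15.01. It was 3.25 ± 0.07 above vector with the full-length receptor (adjusted p = 2.18e-10) and a further 4.40 ± 0.07 higher with NICD (adjusted p = 8.01e-13). OLFM4 was likewise above vector with full-length Notch1, by 2.24 ± 0.13 (adjusted p = 3.48e-06).

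The steroid dehydrogenase gene HSD17B2 was above vector by 0.59 ± 0.08 with full-length Notch1 (adjusted p = 0.0186) and read 7.75, 7.88 and 7.97 there against 12.26, 12.28 and 12.24 with NICD. SERPINA3, a protease inhibitor, was above vector by 0.55 ± 0.06 (adjusted p = 0.00465) and then 3.09 ± 0.06 higher with NICD. CCN1 was above vector by 0.53 ± 0.07 (adjusted p = 0.0206). These 5 genes all stood higher with NICD than with full-length Notch1, whose arrays they did not overlap.

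PDIA4, an endoplasmic reticulum protein that forms disulphide bonds, had another order. It stood at 10.40 ± 0.04 with vector, read 10.86, 10.80 and 10.84 with full-length Notch1 and 10.46, 10.58 and 10.45 with NICD, and stood at 10.47 ± 0.05 with Notch1 L1601P+ΔP. It was thus highest with the intact receptor, by 0.44 ± 0.05 over vector (adjusted p = 0.0107), and NICD differed from it by -0.34 ± 0.05 (adjusted p = 0.000356). The chaperone genes HSPA5 and HSP90B1 of the same compartment were singled out after their values were seen. HSPA5 read 12.86, 12.89 and 12.93 with full-length Notch1 and 12.72, 12.68 and 12.65 with NICD (-0.21 ± 0.05, adjusted p = 0.00501), and HSP90B1 read 11.35, 11.32 and 11.31 against 11.10, 11.20 and 11.12 (-0.19 ± 0.05, adjusted p = 0.0113). Against vector, full-length Notch1 differed by 0.26 for HSPA5 and 0.28 for HSP90B1, and neither was called (adjusted p = 0.238 and 0.223).

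RAP1A, a small GTPase, was the gene called lower with full-length Notch1 than with vector, at -1.17 ± 0.06 (adjusted p = 7.51e-07). It read 12.15, 12.20 and 12.28 with full-length Notch1 and 11.25, 11.23 and 11.34 with NICD, a further difference of -0.93 ± 0.06 (adjusted p = 5.71e-08). The other bright probe set of RAP1A differed by -0.98 between NICD and full-length Notch1, and the remaining ones, at 0.07 and -0.01, were not called. On their median the difference was -0.45. The RAP1A probe sets thus did not move together, and which transcripts they read was not analysed here.

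**Figure D5:**
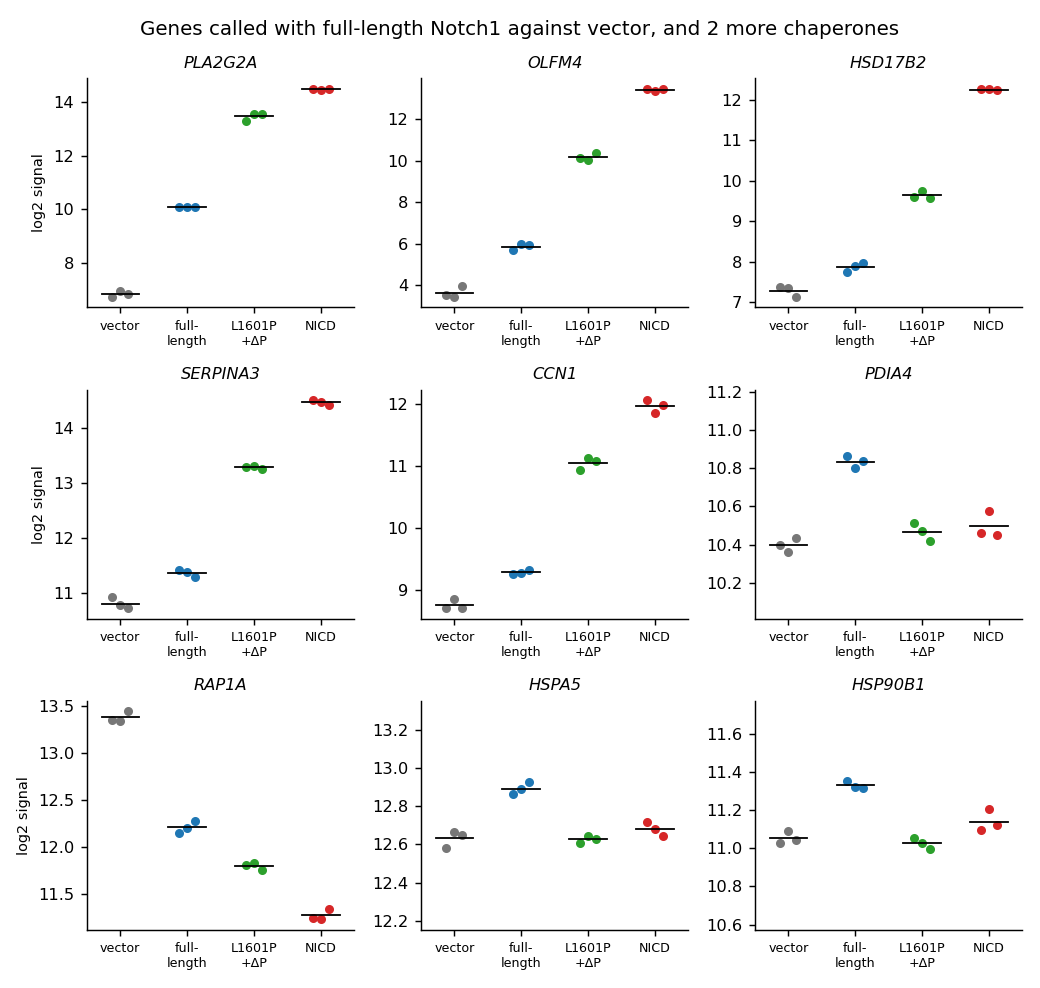
Log2 signal on each of the 12 arrays (points) with group means (lines) for the 7 genes called between full-length Notch1 and vector, and for the chaperones HSPA5 and HSP90B1, picked after their values were seen. PLA2G2A, OLFM4, HSD17B2, SERPINA3 and CCN1 go up from vector through full-length Notch1 to NICD, RAP1A goes down, and PDIA4 is highest with full-length Notch1.

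The Notch1 L1601P+ΔP arrays mostly lay between the groups compared. With the full-length mean at 0% and the NICD mean at 100%, the Notch1 L1601P+ΔP mean lay between them in 330 of the 351 genes at least 2-fold higher with NICD (94%), at a median of 24.1% of the way. Among the 177 genes at least 2-fold lower it did so in 174 (98.3%), at a median of 28.1%, and over all genes in 47.9%. The genes were chosen on the end points of this scale, so the shares are a description. Single genes differed in how far they went: HES4 stood at 7.10 ± 0.02, 8.28 ± 0.12 and 9.02 ± 0.19 with full-length Notch1, Notch1 L1601P+ΔP and NICD, and HEY2 at 3.74 ± 0.02, 3.95 ± 0.17 and 7.37 ± 0.10. Under 10% of the way lay 76 of the genes that were higher, and over 50% lay 34.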

How the data were processed

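RNA of 12 samples was hybridised to 1-colour Affymetrix arrays of 54675 probe sets. The values are the authors' deposited log2 signals, made with RMA (background correction, quantile normalization, probe set summary), per the submitters' processing notes, which also name limma, with versions not given in the sources used here. Quantile normalization hides any shift shared by most genes.

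Platform annotation gave 1 symbol to 41091 probe sets, several to 1801 and none to 11721, and 62 were controls. RefSeq gene numbers matched 41037 of the first kind. The probe set with the highest mean over 12 arrays stood for each of 19775 genes. limma 3.58.1 (R 4.3.3) fitted group means on all 12 arrays (8 residual degrees of freedom, 4.09 added by eBayes), two-sided, with Benjamini-Hochberg adjustment over all genes, or over 54613 probe sets where said. The script was tested on simulated data.

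Named are NOTCH1, the 15 largest rises and falls with arrays not overlapping, up to 4 called members per list and direction, members of the Notch lists, cell type markers and genes called between full-length Notch1 and vector. Other list members are given as values and were chosen after their values were seen. Members and lists (599 genes, 561 tested) were chosen with earlier results of these data known. Alternatives numbered 14. The number of arrays limits the precision.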

Additional observations from a re-analysis of the deposited data

How the results depend on the processing

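All 14 alternatives kept the counts of genes called within 1.5 times: from 4249 without full-length Notch1 replicate 3 to 5429 without NICD replicate 2 where an array was left out, beside 5346. With the replicate number as a block, 4995 genes were called (1885 higher, 3110 lower) and 9068 probe sets in place of 9958. Same-numbered arrays correlated at 0.162, -0.1 and -0.028 in their deviations from the group means, and arrays of unlike number at -0.109 to 0.14. With 3 arrays per group these values cannot show whether same-numbered arrays shared a culture or batch. Under the replicate block 3 of 258 named genes lost their call. The 36 genes named for size in this comparison or against vector kept direction and call in 504 of 504 values. They were picked by size among genes called on these same arrays, so this count was largely set by the choice. Over all named genes, 3446 values kept direction and call, 88 lost the call, 26 gained one and 9 turned. On the median of probe sets these were E2F2 (-0.0067), FZD1 (-0.0522), NOTCH1 (-0.0855) and PECAM1 (-0.32), and on the most variable probe set FZD1 (-0.0522), NOTCH1 (-0.37), DLL1 (-0.63), PECAM1 (-0.35) and HEYL (0.19), each reading another probe set. Leaving out dim genes tested 10254 genes, and 1 luminal marker was called higher in place of 4. Median centring gave 30.1% of calls as higher and leaving out dim genes 31.9%. Signal near background limits what can be said of folds for the dimmest genes.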

Other observations

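Neighbours in the RefSeq gene order that were both at least 2-fold changed in the same direction made up 28 pairs among the 350 placed genes that were higher with NICD than with full-length Notch1, and 7 pairs among the 177 that were lower. The phospholipase genes PLA2G2A and PLA2G5 rose by 4.40 and 5.25 side by side. GUCY1A1 and GUCY1B1, which encode the subunits of soluble guanylate cyclase, rose by 4.15 and 4.40, and the complement protease genes C1S and C1R by 2.53 and 2.25. The interleukin receptor genes IL1R2 and IL1R1 rose by 1.196 and 2.76, and IL1RL1 and IL18R1 by 1.60 and 1.33. The elastase inhibitor gene PI3 rose by 2.40 next to WFDC12 and WFDC5 of the same family, at 1.27 and 1.46. Among the falls, MIR205HG, MIR205 and LAMB3 lay in a row at -1.99, -1.85 and -1.37. DKK1 and LNCAROD differed by -1.23 and -2.21, and the bradykinin receptor genes BDKRB2 and BDKRB1 by -1.78 and -1.48. SERPINB4 and SERPINB3 (4.42 and 2.51), REG1B and REG1A (1.91 and 3.35) and AKR1C1 and AKR1C2 (-1.25 and -1.32) are near-identical copies whose probes may read each other, so their separate values are uncertain. These pairs were picked after their values were seen, no count of pairs was tested, and whether neighbouring probe sets share transcripts was not analysed here.

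Among 13522 probe sets with several gene symbols or none, 602 were called higher and 725 lower with NICD against full-length Notch1, over all probe sets, and they are not named here.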
